A study of Oryza sativa with 12 samples.

Results

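The transcripts around Pbl6 on chromosome 6 of rice were followed in 2-mm young panicles of Koshihikari and its near-isogenic lines. The aim was to see which transcripts differed in both lines that carry the Pbl6 segment. Members were the transcripts whose Rice Annotation Project identifiers lie from Os06t0630000 to Os06t0700000, leaving out Os06t0665400, which is Pbl6 (APO1) itself. The rule used no measured value and gave 541 transcripts of 455 loci, out of 40722 transcripts of 34126 loci in the table. The compared lines were the japonica cultivar Koshihikari, with neither segment, NIL-Prl5ST-1 with a chromosome 5 segment, NIL-Pbl6ST-1 with a chromosome 6 segment, and NIL-Prl5ST-1+Pbl6ST-1 with both, each with 3 libraries. The segments come from the line ST-1 and were placed in Koshihikari by repeated backcrossing and marker selection, and the plants were grown in a paddy field. Each genotype is 1 selected line, so Pbl6, the genes that came with it and any other ST-1 DNA left in a line cannot be told apart. The ends of the ST-1 segment were not used here, so the members are neighbours of Pbl6 by identifier and are not known to lie inside the segment.

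Pbl6 encodes an F-box protein, a kind of protein that selects others for tagging with ubiquitin, and APO1 is the rice counterpart of UNUSUAL FLORAL ORGANS of Arabidopsis. In rice it keeps the inflorescence meristem forming branches before spikelets are made. When a chosen locus is moved into another cultivar by backcrossing, neighbouring genes on the same stretch of chromosome travel with it, and their donor alleles can differ in expression whether or not they bear on the trait. Identifier numbers of the Rice Annotation Project rise along a chromosome, and this order is used below as the map order.

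Total counts ranged from 16041196 to 31760529 per library, and the members took between 1.28% and 1.32% of the counts in every library. Values are in cpm, counts per 1000000 counts of a library, with library sizes scaled by edgeR's TMM method, and a count of 3 was worth between 0.0971 and 0.192 cpm. Koshihikari replicate 2 and NIL-Prl5ST-1 replicate 2 stood apart from the other libraries of their lines. Their chi-square per degree of freedom was between 12.7 and 20.1 against the replicates of their line. Other pairs of replicates had 3.48 to 8.67, and main counts are also given without these libraries. For some members, named after their values were seen, each leaned toward the other line. Os06t0644100-01 was at 181, 243 and 177 cpm in Koshihikari and 291, 222 and 310 cpm in NIL-Prl5ST-1. Os06t0645400-01 was at 105, 67.9 and 101 cpm and at 55.4, 75 and 50.1 cpm. In members such as Os06t0665000-01, whose other replicates were close between these lines, no such leaning could be seen. The cause was not tested. Every main comparison below uses Koshihikari replicate 2, NIL-Prl5ST-1 replicate 2 or both. Transcripts described as a FLORICAULA/LEAFY-like protein (92.7 to 174 cpm) and as a MADS-box factor of inflorescence and spikelet development (74.0 to 90.9 cpm) were present in all 12 libraries, as in the young panicle named in the labels, while 12 chlorophyll a/b and Rubisco small subunit transcripts summed to between 42.4 and 68.0 cpm. In bulk panicles, fewer cells of a type and less RNA per cell cannot be told apart. The methods of the study describe its experiments in general as biologically replicated, and the labels do not say which plants or pools of panicles gave each library, so the p-values measure the spread between these libraries.

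The shares of transcripts around Pbl6 that differed with the segment were close to those of the whole table. Of the 428 members with enough counts to be tested, 30 (7.01%) differed between NIL-Pbl6ST-1 and Koshihikari at an adjusted p below 0.05, where the share over all 31643 transcripts tested was 8.49%. Of them 10 were higher (2.34%, beside 3.07% over all) and 20 lower (4.67%, beside 5.42% over all). Between NIL-Prl5ST-1+Pbl6ST-1 and NIL-Prl5ST-1, which have other libraries, 111 members (25.9%) differed against 25.3% over all. By direction, 43 were higher (10%, beside 13.2% over all) and 68 lower (15.9%, beside 12.1% over all), a difference in balance that was not tested. In a fit of the Pbl6 segment over all 12 libraries, 73 members (17.1%) were called against 16.6% over all. Of these 30 were higher (7.01%, beside 8.22% over all) and 43 lower (10%, beside 8.35% over all). At an unadjusted p below 0.05 the counts were 98, 173 and 125 members, beside 25.3%, 37.9% and 32.1% over all. The median log2 fold change of the members was 0.0045, -0.022 and -0.0045 in these 3 comparisons, beside -0.0038, 0.0045 and 0.0022 over all transcripts. No member was at 3 counts or fewer in all 6 libraries with the segment and at 10 or more in all 6 without it, and none showed the reverse. The 113 members not tested averaged at most 0.390 cpm over the 12 libraries. Among them, Os06t0666750-00, in the identifier block that holds Pbl6, was named after its values were seen. Its counts were 7, 7 and 11 in Koshihikari and 6, 9 and 3 in NIL-Prl5ST-1. With the segment they were 1, 0 and 0 in NIL-Pbl6ST-1 and 0, 1 and 0 in NIL-Prl5ST-1+Pbl6ST-1. These counts are low, and how many such rows the whole table holds was not computed.

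These counts moved with the libraries. For fits with 1 library left out, here and below, the share over all transcripts was not computed. Such counts are not read as results about the members. With Koshihikari replicate 2 left out, 93 members were called in NIL-Pbl6ST-1 against Koshihikari, with Koshihikari replicate 3 left out 19, and with any 1 of the NIL-Pbl6ST-1 libraries left out 11. For NIL-Prl5ST-1+Pbl6ST-1 against NIL-Prl5ST-1 the count was 52 and 51 without NIL-Prl5ST-1 replicates 1 and 3, and 63 without NIL-Prl5ST-1+Pbl6ST-1 replicate 3. The count over 12 libraries was 47 without NIL-Prl5ST-1 replicate 1, and 46 and 45 without NIL-Prl5ST-1+Pbl6ST-1 replicates 1 and 2. Without both libraries that stood apart, 21.7% of the members and 23.2% of all transcripts were called in the first comparison. In the second these shares were 37.1% and 35.3%. In the fit over the remaining libraries 54 members were called, and the share over all was not computed.

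A shift shared by both lines with the segment was found for 16 members of 15 loci, 4 higher and 12 lower. That is 3.74% of the members tested, beside 3.3% of all transcripts and 3.2% of the 2127 tested transcripts with other chromosome 6 identifiers. Here, shared means an adjusted p below 0.05 with the same sign in NIL-Pbl6ST-1 against Koshihikari and in NIL-Prl5ST-1+Pbl6ST-1 against NIL-Prl5ST-1. The lower members were 2.8% of those tested beside 2.11% over all, and the higher ones 0.935% beside 1.19%. At an unadjusted p below 0.05 the shared members numbered 39 (9.11%, beside 8.32% over all). Every one of the 16 was also called over the 12 libraries, with log2 fold changes between 0.31 and 2.43 in size. That fit uses the libraries that chose the 16, so these calls add no separate support. None of the 16 was called in NIL-Prl5ST-1 against Koshihikari, where both lines lack the segment, beside 0.743% of all transcripts. With 16 members this is not read as a result. The number of shared members was 7 without NIL-Prl5ST-1 replicate 3, between 5 and 6 without any 1 of the NIL-Pbl6ST-1 libraries and 8 without NIL-Prl5ST-1+Pbl6ST-1 replicate 1. Without both libraries that stood apart it was 24 (5.61%, beside 5.23% over all), and these included all 16.

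**Figure D1:**
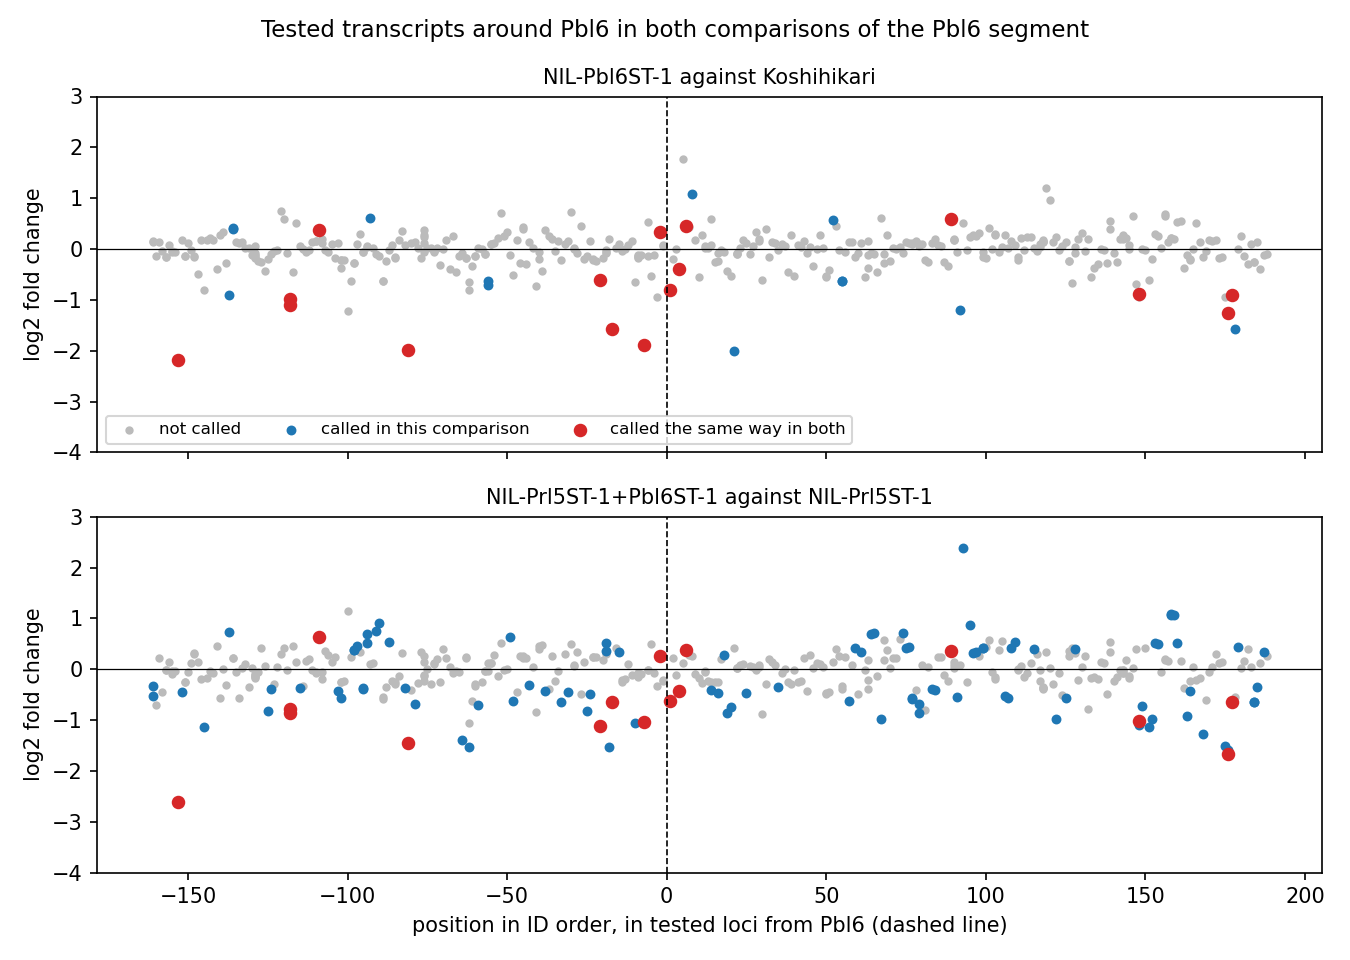
Log2 fold change of each tested member (vertical axis) against its position in identifier order, counted in tested loci from Pbl6 (dashed line, not plotted), in NIL-Pbl6ST-1 against Koshihikari (top) and NIL-Prl5ST-1+Pbl6ST-1 against NIL-Prl5ST-1 (bottom). Grey points were not called, blue points were called in that comparison and the 16 red points were called the same way in both, of which 7 lie within 21 tested loci of Pbl6.

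The number of shared members varied along the identifiers. In 7 blocks of 10000 identifier numbers from Os06t0630000 on, 1, 4, 0, 7, 0, 1 and 3 members were shared, and the block with 7, from Os06t0660000, is the one that holds Pbl6. Its share was 9.86% of 71 tested members, beside 5.97% in the block from Os06t0640000 and 3.75% in the last block. Counted from Pbl6 itself, 3 of the 12 tested transcripts of the 5 nearest loci on each side were shared (25%). For 10 loci on each side it was 5 of 26 (19.2%), for 20 loci 6 of 52 (11.5%) and for 40 loci 7 of 98 (7.14%). The share over all transcripts, beside these blocks and windows, was 3.3%. The 12 transcripts of the nearest window belong to 10 loci. The windows of 10, 20 and 40 loci were chosen after the values were seen, and these few transcripts were not tested as a group.

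The count near Pbl6 moved with single libraries as well. In the block from Os06t0660000, 2 members were shared without NIL-Prl5ST-1 replicate 3, 3, 2 and 3 without NIL-Pbl6ST-1 replicates 1, 2 and 3, and 3 and 4 without NIL-Prl5ST-1+Pbl6ST-1 replicates 1 and 3. Without both libraries that stood apart the block held 8 (11.3%) and the nearest 5 loci on each side 4 of 12 (33.3%), beside 5.23% over all. The median log2 fold change of the tested members of this block was -0.052 in NIL-Pbl6ST-1 against Koshihikari and -0.071 in NIL-Prl5ST-1+Pbl6ST-1 against NIL-Prl5ST-1.

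**Figure D2:**
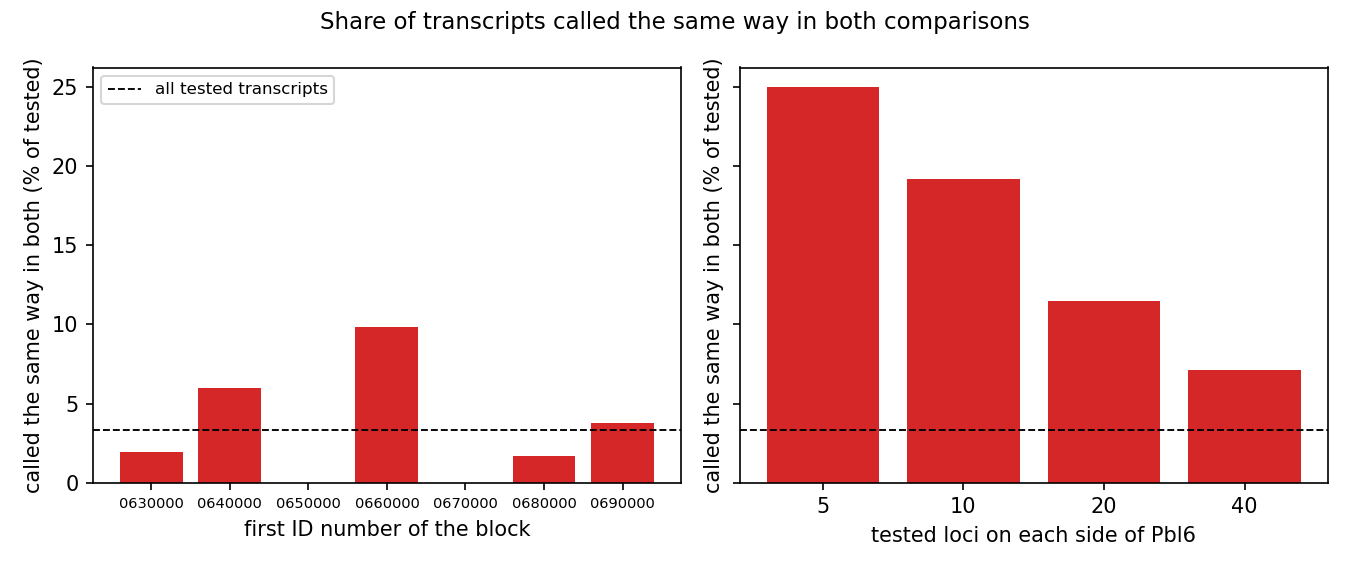
Share of tested transcripts called the same way in both comparisons (vertical axis, percent), by block of 10000 identifier numbers (left) and by window of tested loci on each side of Pbl6 (right). The dashed line is the 3.3% of all tested transcripts, and the block from Os06t0660000 stands at 9.86% while the windows go from 25% for 5 loci to 7.14% for 40 loci.

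The locus next to Pbl6 in identifier order, Os06t0665500-01, was lower in both lines with the segment. It is described as a peptidase of the M20 family, which in Arabidopsis includes enzymes that free auxin from its amino acid conjugates. The libraries were at 9.52, 13 and 8.42 cpm in Koshihikari, 10.9, 8.35 and 11.6 cpm in NIL-Prl5ST-1, 6.16, 5.67 and 5.76 cpm in NIL-Pbl6ST-1 and 7.75, 6.5 and 5.73 cpm in NIL-Prl5ST-1+Pbl6ST-1. All 6 libraries with the segment lay below all 6 without it. Its log2 fold change was -0.81 (SE 0.16, edgeR adjusted p = 0.0102) in NIL-Pbl6ST-1 against Koshihikari and -0.63 (SE 0.16, edgeR adjusted p = 0.00959) in NIL-Prl5ST-1+Pbl6ST-1 against NIL-Prl5ST-1. The means with and without the segment differed 1.64-fold. In NIL-Prl5ST-1 against Koshihikari the log2 difference was 0.00 (SE 0.17, edgeR adjusted p = 1). That value depends on the libraries that stood apart, since replicate 2 was the highest of Koshihikari and the lowest of NIL-Prl5ST-1.

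Os06t0665000-01, on the other side of Pbl6, was higher with the segment. It belongs to a transmembrane family of unknown function (DUF284) whose yeast members are partners of lipid-moving ATPases. Its libraries stood at 44.1, 37.3 and 44.9 cpm in Koshihikari, 44.9, 45.2 and 42.5 cpm in NIL-Prl5ST-1, 53.2, 53.3 and 54 cpm in NIL-Pbl6ST-1 and 55.2, 53.5 and 50.7 cpm in NIL-Prl5ST-1+Pbl6ST-1. The 6 libraries with the segment were close together and did not overlap with the others. Here the log2 fold change was 0.34 (SE 0.09, edgeR adjusted p = 0.0411) in NIL-Pbl6ST-1 against Koshihikari and 0.27 (SE 0.09, edgeR adjusted p = 0.0424) in NIL-Prl5ST-1+Pbl6ST-1 against NIL-Prl5ST-1. A second transcript of this locus, Os06t0665000-02, held nearly the same counts, between 1 and 1.02 times as many in each library, and is not an independent result. Its adjusted p in the second comparison was 0.0515, just outside the threshold.

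Os06t0666100-01, a protein with the DUF597 domain that is also called PLATZ in plants, was lower in both lines with the segment. Its libraries were at 23.2, 27.2 and 27.2 cpm in Koshihikari, 26.5, 26.1 and 36.3 cpm in NIL-Prl5ST-1, 21.1, 19.2 and 19 cpm in NIL-Pbl6ST-1 and 22.9, 25 and 18.5 cpm in NIL-Prl5ST-1+Pbl6ST-1. NIL-Prl5ST-1+Pbl6ST-1 replicate 2 reached into the range of the lines without the segment, so the groups overlapped. It had a log2 fold change of -0.39 (SE 0.10, edgeR adjusted p = 0.0372) in NIL-Pbl6ST-1 against Koshihikari and -0.42 (SE 0.14, edgeR adjusted p = 0.0363) in NIL-Prl5ST-1+Pbl6ST-1 against NIL-Prl5ST-1.

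The other loci among the 5 on each side of Pbl6 did not pass the test in either comparison or over the 12 libraries. Os06t0664400-01, with the DNA-binding domain of HMG-I and HMG-Y proteins, was at 44.1 ± 1.38 cpm (SD, n = 6) with the segment and 47.2 ± 2.79 cpm (SD, n = 6) without it. Os06t0665100-01 (Dreg-2 like) was at 83.5 ± 5.48 cpm (SD, n = 6) with the segment and 88.6 ± 6.01 cpm (SD, n = 6) without it, and Os06t0665900-00 (thioredoxin domain) was at 22.1 ± 1.33 cpm (SD, n = 6) with the segment and 22.9 ± 1.53 cpm (SD, n = 6) without it. The heavy metal ATPase Os06t0665800-01, of a family that pumps metal ions across membranes, was at 8.57 ± 1.55 cpm (SD, n = 6) with the segment and 8.52 ± 1.33 cpm (SD, n = 6) without it, with a log2 fold change of 0.01 (SE 0.13, edgeR adjusted p = 0.956) over the 12 libraries.

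Other neighbours had low counts, from 5 to 48 per library for the first one named here. Os06t0664800-01, similar to the phosphate starvation regulator Psr1 of the alga Chlamydomonas, was at 0.87 ± 0.299 cpm (SD, n = 6) with the segment and 1.36 ± 0.243 cpm (SD, n = 6) without it, with a log2 fold change of -0.62 (SE 0.23, edgeR adjusted p = 0.0725) over the 12 libraries. Os06t0664300-01, a vacuolar sorting receptor that would carry proteins to the vacuole, was at 0.374 ± 0.164 cpm (SD, n = 6) with the segment and 0.374 ± 0.175 cpm (SD, n = 6) without it, and Os06t0666400-01, a VQ domain protein, at 0.415 ± 0.164 cpm (SD, n = 6) with the segment and 0.246 ± 0.253 cpm (SD, n = 6) without it. For Pbl6 itself, Os06t0665400-01, the log2 fold change over the 12 libraries was -0.31 (SE 0.20, edgeR adjusted p = 0.311). It was -0.25 (SE 0.29, edgeR adjusted p = 0.629) in NIL-Pbl6ST-1 against Koshihikari and -0.37 (SE 0.28, edgeR adjusted p = 0.349) in NIL-Prl5ST-1+Pbl6ST-1 against NIL-Prl5ST-1. Libraries stood between 0.89 and 2.23 cpm for Pbl6. The paper reports more Pbl6 in the parent ST-1 than in Koshihikari by RT-PCR when primary branches initiate, and lower levels in both at other stages. The values here are from 2-mm panicles of Koshihikari and the near-isogenic lines, and ST-1 itself is not among them.

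A little further out, a bZIP transcription factor and an aminopeptidase stood lower with the segment. Os06t0664100-01, 7 tested loci before Pbl6, is similar to Xaa-Pro aminopeptidase 1, an enzyme that removes the first residue of peptides whose next residue is proline. It was at 6.03, 4.03 and 5.52 cpm in Koshihikari, 4.92, 4.95 and 3.43 cpm in NIL-Prl5ST-1, 1.69, 1.51 and 0.897 cpm in NIL-Pbl6ST-1 and 2.34, 1.93 and 2.22 cpm in NIL-Prl5ST-1+Pbl6ST-1. The highest library with the segment, at 2.34 cpm, stood below the lowest without it, at 3.43 cpm. Its log2 fold change was -1.88 (SE 0.24, edgeR adjusted p = 0.000555) in NIL-Pbl6ST-1 against Koshihikari and -1.03 (SE 0.21, edgeR adjusted p = 0.00283) in NIL-Prl5ST-1+Pbl6ST-1 against NIL-Prl5ST-1, a 2.73-fold difference between the means of 6 libraries.

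Os06t0662200-01, 17 tested loci before Pbl6, carries a bZIP domain, the DNA-binding domain of a large class of transcription factors. The values were 7.03, 7.72 and 5.68 cpm in Koshihikari, 6.06, 6.08 and 6.89 cpm in NIL-Prl5ST-1, 2.18, 2.56 and 2.11 cpm in NIL-Pbl6ST-1 and 3.33, 4.61 and 4.2 cpm in NIL-Prl5ST-1+Pbl6ST-1. NIL-Pbl6ST-1 had the lowest libraries and NIL-Prl5ST-1+Pbl6ST-1 lay between it and the lines without the segment, with no overlap between these 3 ranges. Log2 fold changes were -1.57 (SE 0.17, edgeR adjusted p = 0.00025) in NIL-Pbl6ST-1 against Koshihikari and -0.64 (SE 0.16, edgeR adjusted p = 0.0102) in NIL-Prl5ST-1+Pbl6ST-1 against NIL-Prl5ST-1. The difference between these effects was 0.92 (SE 0.23, edgeR adjusted p = 0.0457). This call was lost in 7 of the 12 fits with 1 library left out, those without Koshihikari replicate 1 or 3, NIL-Prl5ST-1 replicate 1 or 3, NIL-Pbl6ST-1 replicate 1 or 3, or NIL-Prl5ST-1+Pbl6ST-1 replicate 3, in which no member was called for the difference.

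Os06t0666600-01, 6 tested loci after Pbl6, is similar to cytosolic glyceraldehyde-3-phosphate dehydrogenase, an enzyme of glycolysis, and was higher with the segment. Its values were 10.2, 10.9 and 12.3 cpm in Koshihikari, 11.4, 12.6 and 10.6 cpm in NIL-Prl5ST-1, 15.2, 16.5 and 13.8 cpm in NIL-Pbl6ST-1 and 14.7, 14.9 and 14.9 cpm in NIL-Prl5ST-1+Pbl6ST-1. No library with the segment overlapped with one without it. This amounted to a log2 fold change of 0.45 (SE 0.12, edgeR adjusted p = 0.0366) in NIL-Pbl6ST-1 against Koshihikari and 0.37 (SE 0.11, edgeR adjusted p = 0.0278) in NIL-Prl5ST-1+Pbl6ST-1 against NIL-Prl5ST-1. The non-coding transcript listed just after it, Os06t0666650-00, named after its values were seen, also had no overlap. Its log2 fold change was 0.36 (SE 0.10, edgeR adjusted p = 0.0297) over the 12 libraries. These neighbouring transcripts may share reads, so Os06t0666650-00 is not read as an independent result.

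Os06t0661766-00, a conserved gene with no described product, was lower with the segment. It stood at 11.1, 16.2 and 15.3 cpm in Koshihikari, 24.1, 15.2 and 26.8 cpm in NIL-Prl5ST-1, 9.88, 8.23 and 9.93 cpm in NIL-Pbl6ST-1 and 9.3, 10.7 and 10.3 cpm in NIL-Prl5ST-1+Pbl6ST-1. The lines with the segment lay in a narrow range under all others, while NIL-Prl5ST-1 replicates 1 and 3 were the highest libraries. Log2 fold changes were -0.60 (SE 0.15, edgeR adjusted p = 0.0291) in NIL-Pbl6ST-1 against Koshihikari and -1.12 (SE 0.17, edgeR adjusted p = 0.000455) in NIL-Prl5ST-1+Pbl6ST-1 against NIL-Prl5ST-1.

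**Figure D3:**
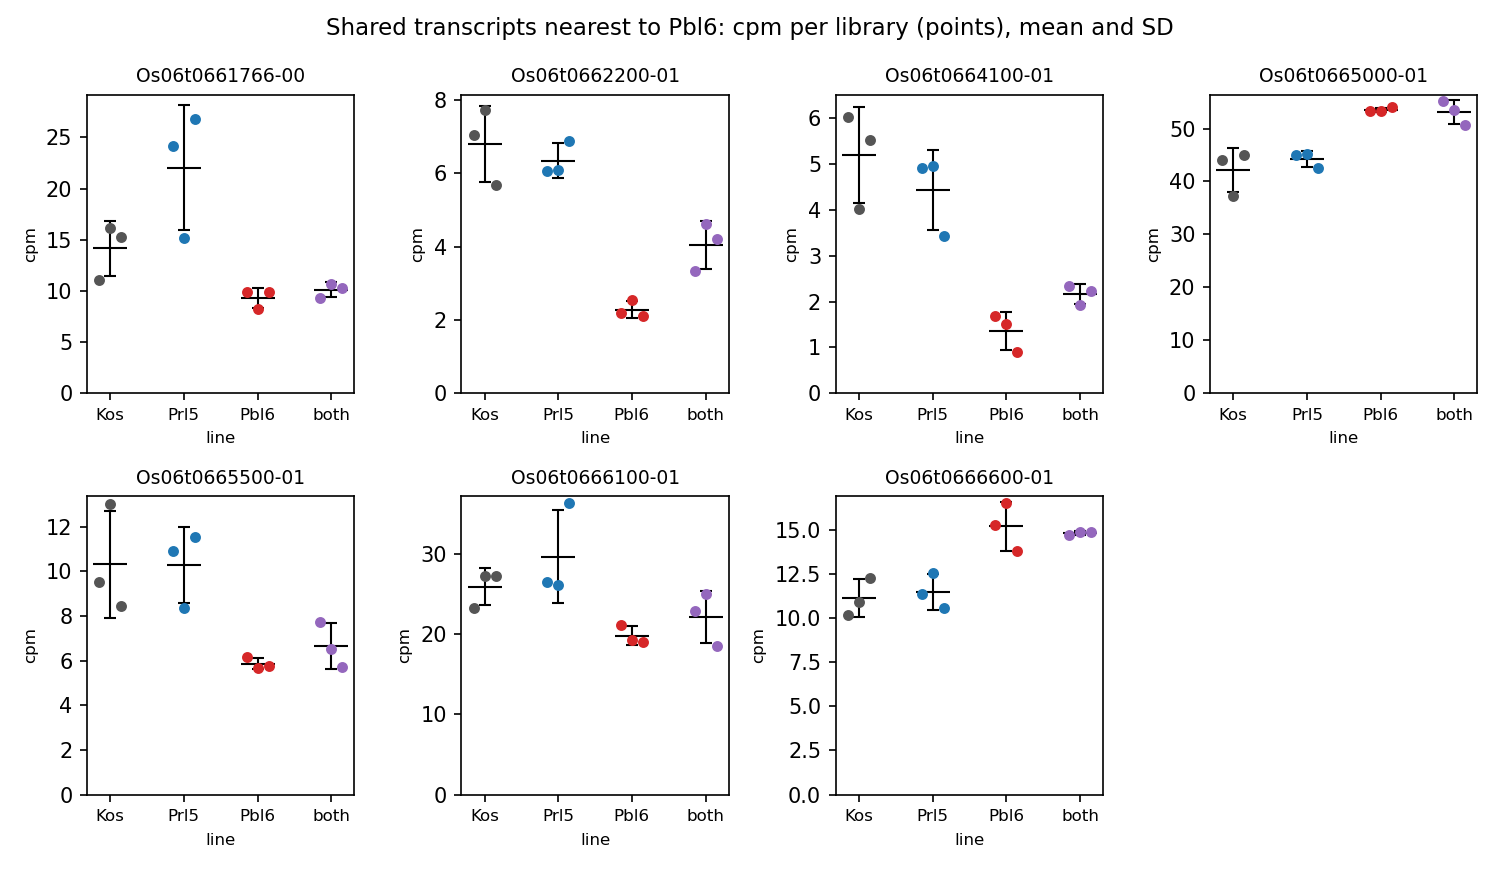
Values in cpm (vertical axis) of the 7 shared members nearest to Pbl6 in the 12 libraries, by line (Kos, Koshihikari; Prl5, NIL-Prl5ST-1; Pbl6, NIL-Pbl6ST-1; both, NIL-Prl5ST-1+Pbl6ST-1), with points for libraries and bars for the mean and SD of 3. Os06t0665000-01 and Os06t0666600-01 are higher and the other 5 are lower in the lines with the segment, and of the 7 only Os06t0666100-01 has libraries that overlap.

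Away from Pbl6, most of the shared members were described as enzymes or had no known function. The decrease over the 12 libraries that was largest in log2 size among the shared members was that of Os06t0633100-01, described only as similar to P10Sh249C12. It was at 1.44, 2.73 and 2.74 cpm in Koshihikari, 5.57, 2.65 and 4.53 cpm in NIL-Prl5ST-1, 0.488, 0.411 and 0.641 cpm in NIL-Pbl6ST-1 and 0.364, 0.718 and 0.939 cpm in NIL-Prl5ST-1+Pbl6ST-1. Every library with the segment was below 1 cpm and every other library above it. Its log2 fold change was -2.19 (SE 0.33, edgeR adjusted p = 0.0019) in NIL-Pbl6ST-1 against Koshihikari and -2.62 (SE 0.33, edgeR adjusted p = 8.57e-05) in NIL-Prl5ST-1+Pbl6ST-1 against NIL-Prl5ST-1, and the means differed 5.52-fold. In NIL-Prl5ST-1 against Koshihikari it was 0.87 (SE 0.30, edgeR adjusted p = 0.117). That value rests in part on NIL-Prl5ST-1 replicate 2, which stood apart and was the lowest of its line.

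Os06t0647400-02 is similar to lysosomal Pro-X carboxypeptidase, which removes a last residue that follows proline. It had 2.53, 1.97 and 2.03 cpm in Koshihikari, 1.91, 1.66 and 2.07 cpm in NIL-Prl5ST-1, 0.451, 0.731 and 0.448 cpm in NIL-Pbl6ST-1 and 0.728, 0.567 and 0.791 cpm in NIL-Prl5ST-1+Pbl6ST-1. The libraries with the segment were all under 1 cpm and those without it at 1.66 cpm or more. A log2 fold change of -1.99 (SE 0.28, edgeR adjusted p = 0.00114) in NIL-Pbl6ST-1 against Koshihikari and -1.45 (SE 0.27, edgeR adjusted p = 0.00191) in NIL-Prl5ST-1+Pbl6ST-1 against NIL-Prl5ST-1 was fitted, and the means differed 3.27-fold.

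Os06t0642500, a locus of a cytochrome P450, a class of oxidising enzymes, was lower in both of its transcripts. The first of them, Os06t0642500-01, was at 2.53, 3.5 and 2.38 cpm in Koshihikari, 2.84, 2.62 and 3.43 cpm in NIL-Prl5ST-1, 1.5, 1.55 and 1.15 cpm in NIL-Pbl6ST-1 and 1.3, 1.59 and 2.03 cpm in NIL-Prl5ST-1+Pbl6ST-1. No library with the segment reached those without it. For Os06t0642500-01 the log2 fold change was -0.97 (SE 0.23, edgeR adjusted p = 0.0222) in NIL-Pbl6ST-1 against Koshihikari and -0.86 (SE 0.23, edgeR adjusted p = 0.0131) in NIL-Prl5ST-1+Pbl6ST-1 against NIL-Prl5ST-1. The counts of Os06t0642500-02 were between 0.778 and 0.976 times those of the first in each library, and its log2 fold changes of -1.11 (SE 0.24, edgeR adjusted p = 0.016) in NIL-Pbl6ST-1 against Koshihikari and -0.79 (SE 0.23, edgeR adjusted p = 0.022) in NIL-Prl5ST-1+Pbl6ST-1 against NIL-Prl5ST-1 are not independent of them.

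Os06t0682900-01, described by an aldolase-type barrel, a fold of many metabolic enzymes, was higher with the segment. Its libraries were at 24.5, 30.8 and 24.9 cpm in Koshihikari, 29.7, 29.4 and 36.9 cpm in NIL-Prl5ST-1, 39.8, 40.5 and 40.1 cpm in NIL-Pbl6ST-1 and 42.5, 40.3 and 40.1 cpm in NIL-Prl5ST-1+Pbl6ST-1. The 6 libraries with the segment lay between 39.8 and 42.5 cpm, above all others. In log2 terms the difference was 0.58 (SE 0.10, edgeR adjusted p = 0.00486) in NIL-Pbl6ST-1 against Koshihikari and 0.35 (SE 0.11, edgeR adjusted p = 0.0235) in NIL-Prl5ST-1+Pbl6ST-1 against NIL-Prl5ST-1.

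Os06t0643500-01, named after the soybean transcript ADR11 that auxin lowers, was higher with the segment as well. It was counted at 462, 365 and 397 cpm in Koshihikari, 292, 402 and 254 cpm in NIL-Prl5ST-1, 534, 515 and 544 cpm in NIL-Pbl6ST-1 and 493, 517 and 455 cpm in NIL-Prl5ST-1+Pbl6ST-1. Koshihikari replicate 1 lay above NIL-Prl5ST-1+Pbl6ST-1 replicate 3, so the groups overlapped. Log2 fold changes came to 0.38 (SE 0.10, edgeR adjusted p = 0.0413) in NIL-Pbl6ST-1 against Koshihikari and 0.63 (SE 0.14, edgeR adjusted p = 0.00566) in NIL-Prl5ST-1+Pbl6ST-1 against NIL-Prl5ST-1. In NIL-Prl5ST-1 against Koshihikari the value was -0.36 (SE 0.16, edgeR adjusted p = 0.187). It depends on the libraries that stood apart, since replicate 2 was the lowest of Koshihikari and the highest of NIL-Prl5ST-1.

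Near the end of the stretch, Os06t0698785-01 is similar to choline monooxygenase, which makes the first step from choline to glycine betaine. It stood at 3.76, 3.74 and 2.86 cpm in Koshihikari, 4.26, 2.76 and 3.4 cpm in NIL-Prl5ST-1, 2.03, 1.92 and 1.54 cpm in NIL-Pbl6ST-1 and 2.18, 1.97 and 2.42 cpm in NIL-Prl5ST-1+Pbl6ST-1. The groups did not overlap, and all 6 libraries with the segment were lower. Its log2 fold change was -0.89 (SE 0.20, edgeR adjusted p = 0.0174) in NIL-Pbl6ST-1 against Koshihikari and -0.65 (SE 0.21, edgeR adjusted p = 0.0359) in NIL-Prl5ST-1+Pbl6ST-1 against NIL-Prl5ST-1.

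Os06t0698748-02 (similar to MTD1) and Os06t0694400-01 (conserved hypothetical protein) were lower in both comparisons but overlapped between groups. Os06t0698748-02 was at 1.66, 5.37 and 3.42 cpm in Koshihikari, 8.58, 3.68 and 5.69 cpm in NIL-Prl5ST-1, 1.31, 1.6 and 1.41 cpm in NIL-Pbl6ST-1 and 1.87, 1.74 and 1.98 cpm in NIL-Prl5ST-1+Pbl6ST-1. Koshihikari replicate 1 lay within the range of the lines with the segment. For Os06t0698748-02 the log2 fold change was -1.27 (SE 0.35, edgeR adjusted p = 0.0448) in NIL-Pbl6ST-1 against Koshihikari and -1.66 (SE 0.27, edgeR adjusted p = 0.00066) in NIL-Prl5ST-1+Pbl6ST-1 against NIL-Prl5ST-1.

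Os06t0694400-01 stood at 1.7, 2.4 and 2.98 cpm in Koshihikari, 4.64, 3.04 and 5.37 cpm in NIL-Prl5ST-1, 1.31, 1.23 and 1.28 cpm in NIL-Pbl6ST-1 and 2.23, 1.55 and 2.77 cpm in NIL-Prl5ST-1+Pbl6ST-1. NIL-Prl5ST-1+Pbl6ST-1 replicates 1 and 3 reached the Koshihikari libraries. In the test, its log2 fold change was -0.89 (SE 0.25, edgeR adjusted p = 0.0451) in NIL-Pbl6ST-1 against Koshihikari and -1.01 (SE 0.25, edgeR adjusted p = 0.00931) in NIL-Prl5ST-1+Pbl6ST-1 against NIL-Prl5ST-1, and in NIL-Prl5ST-1 against Koshihikari it was 0.88 (SE 0.26, edgeR adjusted p = 0.0888). The last value rests in part on NIL-Prl5ST-1 replicate 2, which stood apart and was the lowest of its line.

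**Figure D4:**
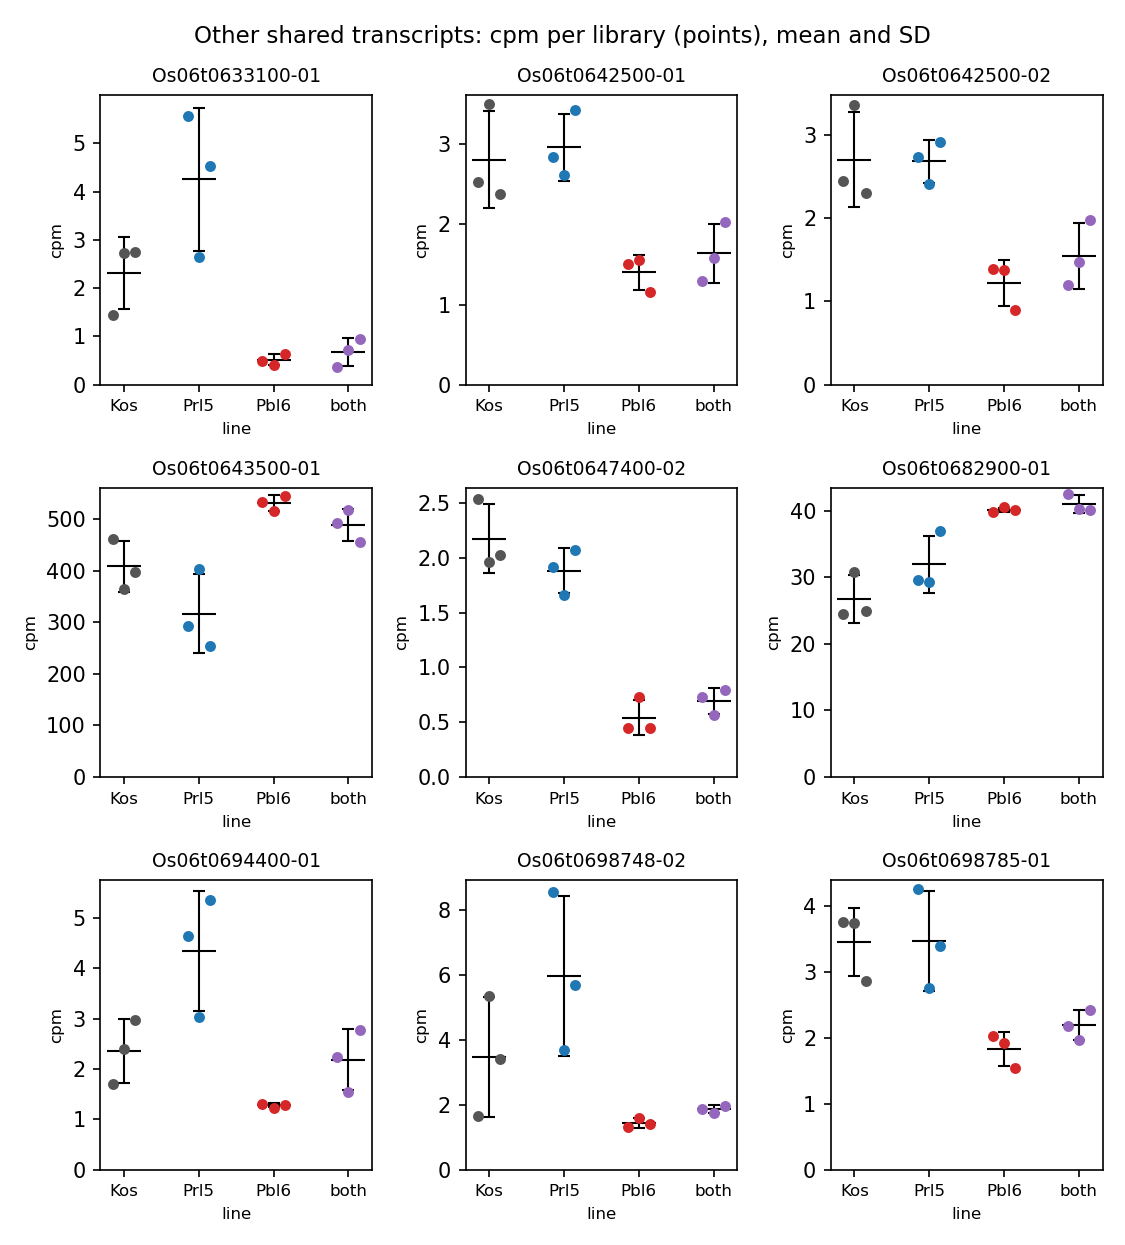
Values in cpm (vertical axis) of the 9 other shared members in the 12 libraries, by line (Kos, Koshihikari; Prl5, NIL-Prl5ST-1; Pbl6, NIL-Pbl6ST-1; both, NIL-Prl5ST-1+Pbl6ST-1), with points for libraries and bars for the mean and SD of 3. Os06t0643500-01 and Os06t0682900-01 are higher and the other 7 are lower in the lines with the segment. Os06t0633100-01 and Os06t0647400-02 stay below 1 cpm in all 6 libraries with the segment.

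The groups with and without the segment did not overlap for 29 members, which is 6.78% of those tested beside 6.79% of all transcripts. Of them 15 were higher (3.43% over all) and 14 lower (3.36% over all). Of the 16 shared members, 12 were among these. An exact two-sided permutation test of log2(cpm + 0.5), 6 libraries against 6, gave these 12 the smallest p it allows, 0.0022. Groups that do not overlap always get this smallest p, so it only restates the lack of overlap. The other 4 had p between 0.0043 and 0.0173 in this test, whose relabelling took no account of the Prl5 segment. The p-values are unadjusted and describe members already chosen by the edgeR test on the same libraries.

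Members outside the 16 were also called over the 12 libraries. Os06t0638100-02, similar to Tic21, a protein of import through the inner chloroplast envelope, was at 16 ± 1.14 cpm (SD, n = 6) with the segment and 12.9 ± 0.569 cpm (SD, n = 6) without it. Its 6 libraries with the segment, from 14.7 to 17.6 cpm, lay above all others, and the log2 fold change over the 12 libraries was 0.31 (SE 0.07, edgeR adjusted p = 0.00807). The first transcript of the locus, Os06t0638100-01, gave 0.31 (SE 0.07, edgeR adjusted p = 0.00912), and the second transcript had 0.593 to 0.675 times its counts in each library, so they are not independent. Among transcripts with no described product, Os06t0695451-00 was at 8.77 ± 0.791 cpm (SD, n = 6) with the segment and 6.64 ± 0.556 cpm (SD, n = 6) without it, with a log2 fold change of 0.41 (SE 0.09, edgeR adjusted p = 0.00755).

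Xyloglucan endotransglucosylases, enzymes that cut and rejoin xyloglucan in the cell wall, formed a run of 6 tested transcripts near the end of the stretch that was singled out after its values were seen, of which 3 are in the cell wall list. They did not move together. Os06t0696500-01 was at 5.86 ± 0.693 cpm (SD, n = 6) with the segment and 4.08 ± 0.646 cpm (SD, n = 6) without it, with a log2 fold change of 0.53 (SE 0.12, edgeR adjusted p = 0.00733) over the 12 libraries. Os06t0696400-01 was also higher, with 0.64 (SE 0.20, edgeR adjusted p = 0.0368), while Os06t0697000-02 was lower, with -0.32 (SE 0.07, edgeR adjusted p = 0.01). Its other transcript, Os06t0697000-01, was lower with -0.21 (SE 0.06, edgeR adjusted p = 0.0285), and Os06t0696600-01 was at 1.95 ± 0.42 cpm (SD, n = 6) with the segment and 2.55 ± 0.588 cpm (SD, n = 6) without it and did not pass.

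The 12 libraries differed in how Os06t0696400-01 stood. It was at 39.7, 26.9 and 23.8 cpm in Koshihikari, 11.6, 19.7 and 11.3 cpm in NIL-Prl5ST-1, 33.7, 28.5 and 44.1 cpm in NIL-Pbl6ST-1 and 31.7, 34.5 and 23.7 cpm in NIL-Prl5ST-1+Pbl6ST-1. All NIL-Prl5ST-1 libraries were below every other library, and the log2 fold change in NIL-Pbl6ST-1 against Koshihikari was 0.23 (SE 0.19, edgeR adjusted p = 0.48). Reads shared among these related genes could not be separated.

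Function lists made from words in the descriptions are given with their calls in the fit over 12 libraries, where 16.6% of all transcripts were called, 8.22% higher and 8.35% lower. With so few members in most lists, these counts are read as no result about a list. Of 9 tested transcription factor transcripts (16 members), the bZIP member Os06t0662200-01 was lower and a basic helix-loop-helix member, Os06t0653200-01, was higher, with 1.34 ± 0.313 cpm (SD, n = 6) with the segment and 0.878 ± 0.126 cpm (SD, n = 6) without it and a log2 fold change of 0.61 (SE 0.19, edgeR adjusted p = 0.0407). A MYB factor (Os06t0637500-02) at 17.1 ± 4.72 cpm (SD, n = 6) with the segment and 20.9 ± 3 cpm (SD, n = 6) without it did not pass, nor did the B3 domain member Os06t0632500-00 at 18.1 ± 1.57 cpm (SD, n = 6) with the segment and 16.9 ± 2.25 cpm (SD, n = 6) without it or the GATA factor Os06t0698900-01 at 14.7 ± 0.919 cpm (SD, n = 6) with the segment and 13.3 ± 1.22 cpm (SD, n = 6) without it. MYB, B3 and GATA name DNA-binding domains of plant transcription factors.

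Protein kinases, which attach phosphate to other proteins, had 18 tested transcripts of 22 members, 1 called higher and 1 lower, beside 8.22% and 8.35% over all. Os06t0639500-01 was at 54.1 ± 2.23 cpm (SD, n = 6) with the segment and 64.5 ± 7.68 cpm (SD, n = 6) without it, with a log2 fold change of -0.24 (SE 0.07, edgeR adjusted p = 0.0247), and Os06t0693200-01 was at 2.69 ± 0.22 cpm (SD, n = 6) with the segment and 2 ± 0.364 cpm (SD, n = 6) without it, with 0.44 (SE 0.14, edgeR adjusted p = 0.0443). The tyrosine kinase-like Os06t0646400-01 at 80.1 ± 6.7 cpm (SD, n = 6) with the segment and 67.4 ± 12.2 cpm (SD, n = 6) without it and Os06t0663900-02 at 46 ± 2.18 cpm (SD, n = 6) with the segment and 49.4 ± 3.4 cpm (SD, n = 6) without it were not called over the 12 libraries. The list holds 1 transcript matched by a word only, a protein kinase C inhibitor.

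None of the 12 tested F-box, ubiquitin and RING transcripts (17 members), the machinery with which an F-box protein such as Pbl6 works, was called over the 12 libraries, beside 16.6% over all, and with 12 transcripts this is not read as a result about the list. A ubiquitin domain transcript, Os06t0681400-01, was at 1561 ± 112 cpm (SD, n = 6) with the segment and 1458 ± 152 cpm (SD, n = 6) without it. Os06t0650100-01, similar to the ubiquitin-like RUB2 that is attached to cullins, was at 129.9 ± 15.8 cpm (SD, n = 6) with the segment and 122 ± 5.86 cpm (SD, n = 6) without it, and the ubiquitin carrier protein Os06t0660700-01 at 74.2 ± 2.7 cpm (SD, n = 6) with the segment and 72.2 ± 1.18 cpm (SD, n = 6) without it. In NIL-Prl5ST-1+Pbl6ST-1 against NIL-Prl5ST-1, 1 member of this list was higher and 2 were lower, beside 13.2% and 12.1% over all.

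Of the 2 chaperone transcripts, proteins that help others fold, the DnaJ member Os06t0650900-02 was lower without overlap. It was at 0.374 ± 0.0964 cpm (SD, n = 6) with the segment and 0.828 ± 0.136 cpm (SD, n = 6) without it. The log2 fold change was -1.15 (SE 0.23, edgeR adjusted p = 0.00334). Its counts were low, 5 to 12 per library with the segment and 14 to 29 without it. The Hsp70 member Os06t0679800-00 stood at 22.4 ± 2.16 cpm (SD, n = 6) with the segment and 20.7 ± 2.42 cpm (SD, n = 6) without it. Among 8 tested transporter transcripts (9 members), the amino acid transporter Os06t0644700-01 was higher, with 15.7 ± 1.3 cpm (SD, n = 6) with the segment and 12.6 ± 0.939 cpm (SD, n = 6) without it and 0.32 (SE 0.08, edgeR adjusted p = 0.0126). A second amino acid transporter, Os06t0633800-02, was at 96.1 ± 7.15 cpm (SD, n = 6) with the segment and 109.9 ± 16.2 cpm (SD, n = 6) without it and did not pass, and Os06t0633800-01 of the same locus at 95.5 ± 6.78 cpm (SD, n = 6) with the segment and 109 ± 15.9 cpm (SD, n = 6) without it. This list holds 2 transcripts matched by a word only, those of the ubiquitin carrier protein.

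The hormone list had 4 tested transcripts of 7 members and no call over the 12 libraries. The small auxin-responsive SAUR family transcript Os06t0671150-00 was at 13.1 ± 1.74 cpm (SD, n = 6) with the segment and 12.7 ± 2.78 cpm (SD, n = 6) without it, and the auxin-independent growth promoter-like Os06t0687400-01 and Os06t0687400-02 at 13.3 ± 1.19 cpm (SD, n = 6) with the segment and 14.1 ± 1.42 cpm (SD, n = 6) without it and at 11 ± 0.887 cpm (SD, n = 6) with the segment and 11.9 ± 0.952 cpm (SD, n = 6) without it. Transcripts for chloroplast ribosomal proteins, Os06t0683200-01 (L24) and Os06t0647100-01 (L35), were lower in NIL-Prl5ST-1+Pbl6ST-1 than in NIL-Prl5ST-1, with log2 fold changes of -0.55 (SE 0.14, edgeR adjusted p = 0.00932) and -0.38 (SE 0.13, edgeR adjusted p = 0.0374), and were not called over the 12 libraries. The 1 tested disease resistance transcript of 3 members, Os06t0667900-00, was at 4.67 ± 0.584 cpm (SD, n = 6) with the segment and 5.57 ± 0.804 cpm (SD, n = 6) without it and was not called.

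The 133 tested members with no known protein (186 members) had a median log2 fold change of -0.081 over the 12 libraries, beside 0.0022 over all transcripts. Of them, 7 were higher and 13 lower in that fit, beside 8.22% and 8.35% over all. In NIL-Prl5ST-1+Pbl6ST-1 against NIL-Prl5ST-1, 7 were higher and 24 lower, beside 13.2% and 12.1% over all. In NIL-Pbl6ST-1 against Koshihikari, 2 were higher and 3 lower, beside 3.07% and 5.42% over all. The hypothetical conserved gene Os06t0688100-01 was at 310.2 ± 31.2 cpm (SD, n = 6) with the segment and 336 ± 88 cpm (SD, n = 6) without it, its transcript Os06t0688100-04 at 119.8 ± 11.4 cpm (SD, n = 6) with the segment and 130.3 ± 36.1 cpm (SD, n = 6) without it and the non-coding Os06t0686700-01 at 261 ± 26.5 cpm (SD, n = 6) with the segment and 318 ± 72.6 cpm (SD, n = 6) without it, and none of these was called over the 12 libraries.

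Between NIL-Prl5ST-1 and Koshihikari, which both lack the Pbl6 segment, 5 members (1.17%) were called, beside 0.743% over all, 1 of them higher (0.382% over all) and 4 lower (0.36% over all). Named after their values were seen, the lower ones were the pollen-specific-like Os06t0678800-01, the non-coding Os06t0678875-00, the calcium-binding Os06t0683400-02 and the xyloglucan enzyme Os06t0696400-02. The higher one was the non-coding Os06t0679200-01. Os06t0678800-01 and Os06t0678875-00 are next to each other among the tested loci and may share reads, so they are not read as independent results. Os06t0678800-01 was at 17.9, 16.9 and 16.2 cpm in Koshihikari, 9.4, 11.9 and 8.48 cpm in NIL-Prl5ST-1, 15.4, 16.8 and 15.9 cpm in NIL-Pbl6ST-1 and 17.9, 16.7 and 13.7 cpm in NIL-Prl5ST-1+Pbl6ST-1. NIL-Prl5ST-1 alone was low, with no overlap with the other lines. Against Koshihikari the log2 fold change was -0.77 (SE 0.14, edgeR adjusted p = 0.0321). The count of 5 became 107 without Koshihikari replicate 2, 52 without NIL-Prl5ST-1 replicate 2, between 1 and 2 without Koshihikari replicates 1 and 3, and 0 without NIL-Prl5ST-1 replicates 1 and 3. The share over all transcripts was not computed for these fits. Koshihikari also serves as the control of NIL-Pbl6ST-1, so these values share libraries with that comparison.

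The effect of the Pbl6 segment differed between the backgrounds for 15 members (3.5%), beside 3.93% over all. The log2 fold change was higher where the Prl5 segment was present for 9 of them (2.08% over all) and lower for 6 (1.85% over all). A zinc finger CCCH protein, Os06t0638000-00, was the 1 member called in opposite directions in the 2 comparisons (0.117% over all). It was at 14.6, 8.68 and 17.8 cpm in Koshihikari, 7.16, 7.89 and 8.57 cpm in NIL-Prl5ST-1, 7.62, 7.54 and 6.73 cpm in NIL-Pbl6ST-1 and 11.4, 10.8 and 17.5 cpm in NIL-Prl5ST-1+Pbl6ST-1. NIL-Pbl6ST-1 lay below all Koshihikari libraries and NIL-Prl5ST-1+Pbl6ST-1 above all NIL-Prl5ST-1 libraries. Log2 fold changes of -0.91 (SE 0.21, edgeR adjusted p = 0.0202) in NIL-Pbl6ST-1 against Koshihikari and 0.74 (SE 0.17, edgeR adjusted p = 0.00575) in NIL-Prl5ST-1+Pbl6ST-1 against NIL-Prl5ST-1 were fitted. The count of 15 became 94 without Koshihikari replicate 2, 69 without NIL-Prl5ST-1 replicate 2, 8 without NIL-Prl5ST-1+Pbl6ST-1 replicate 1, 1 without NIL-Pbl6ST-1 replicate 2, 16 without NIL-Prl5ST-1+Pbl6ST-1 replicate 2, and 0 without any 1 of the other 7 libraries. For these fits too, the share over all transcripts was not computed.

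At the limits of the chosen identifiers, the first tested member Os06t0630300-01 was at 9.55 ± 0.587 cpm (SD, n = 6) with the segment and 11.2 ± 2.95 cpm (SD, n = 6) without it, and the row outside it, Os06t0627500-01, at 5.64 ± 1.11 cpm (SD, n = 6) and 4.97 ± 0.511 cpm (SD, n = 6). The last member Os06t0700000-01 was at 70.5 ± 8.22 cpm (SD, n = 6) with the segment and 66.4 ± 7.53 cpm (SD, n = 6) without it, and the row outside it, Os06t0700100-01, at 1.15 ± 0.268 cpm (SD, n = 6) and 1.18 ± 0.296 cpm (SD, n = 6).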

How the data were processed

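Libraries of 2-mm young panicles were made from 4 lines, 3 per line. The authors deposited raw read counts per Rice Annotation Project transcript with a description. The submitters' processing notes name bcl2fastq, Bowtie and the build IRGSP-1.0. Versions, the counter, the annotation release, the use of strand and the treatment of reads matching several transcripts are not given in the sources used here, so transcripts of a locus, paralogs and antisense genes may share reads. Whether ST-1 alleles lose reads against this reference was not tested. Coordinates and sequences were not used here, since none of the 455 member loci matched the gene table given.

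Counts were tested in R 4.3.3 with edgeR 4.0.16 (TMM, glmQLFit and glmQLFTest, two-sided) on the 31643 transcripts kept by filterByExpr (count minimum 10, total 15, smallest group 3). Benjamini-Hochberg adjustment ran over all of these, and 0.05 was the threshold. Log2 fold changes are fitted values with a prior count of 0.125. The paper normalized with edgeR and gives 0.05 as its minimum P-value, without naming a test. The comparison of NIL-Pbl6ST-1 with Koshihikari and that of the line with both segments with NIL-Prl5ST-1 used 6 libraries each and share none. The Pbl6 term and the difference between its effects were fitted over 12 libraries. Replicates of a line differed beyond counting noise in every pair. Intervals were not given for single values, and floors of 3 counts cover counting error only.

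The transcripts named were the 16 shared members, the first transcript of each of the 5 tested loci on each side of Pbl6, the 8 members of lowest P in each direction over 12 libraries with a mean of at least 50 counts in the higher class, the 3 members of highest mean cpm in each list, and the members at the limits. A rule for members present in only 1 class gave none. List members that passed the test were named after their values were seen, as were the members of which the text says so. Members and lists were chosen with earlier results of these data known. Scripts were tested on simulated data. Alternatives were DESeq2 1.42.0, its size factors, a floor of 10 counts in all libraries, no filter, counts summed to loci, a replicate block, 1 fit of 12 libraries, edgeR's exact test, unadjusted P, and each library left out.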

Additional observations from a re-analysis of the deposited data

Results flagged for a closer look

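The effect of the Pbl6 segment differed between the Koshihikari and NIL-Prl5ST-1 backgrounds for 15 members by edgeR's quasi-likelihood test of the interaction over 12 libraries, with Benjamini-Hochberg adjustment. Values are log2 differences of the effect in NIL-Prl5ST-1+Pbl6ST-1 against NIL-Prl5ST-1 minus that in NIL-Pbl6ST-1 against Koshihikari.

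Positive differences were 1.64 for the zinc finger CCCH protein Os06t0638000-00, 2.37 for the non-coding Os06t0644400-01, 0.64 for each of the ankyrin transcripts Os06t0644500-01 and Os06t0644500-02 of 1 locus, 0.92 for the bZIP protein Os06t0662200-01, 2.43 for the nucleotidyltransferase-like Os06t0669275-00, 0.78 for the pollen-specific-like Os06t0678800-01, 0.81 for the non-coding Os06t0678875-00 and 0.78 for the glutamate receptor-like Os06t0680500-01. The neighbours Os06t0678800-01 and Os06t0678875-00 may share reads and are not read as independent.

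Negative differences were -0.68 for Os06t0630300-01 (DUF1950), -1.32 for Os06t0650700-01, -0.82 for Os06t0666800-01, -1.59 for the non-coding Os06t0679200-01, -1.22 for the pentatricopeptide repeat protein Os06t0690100-01 and -0.71 for Os06t0690600-01. Os06t0669275-00 was at 1.66, 1.05 and 2.38 cpm in Koshihikari, 0.82, 0.813 and 1.2 cpm in NIL-Prl5ST-1, 0.376, 0.411 and 0.512 cpm in NIL-Pbl6ST-1 and 0.988, 0.756 and 2.17 cpm in NIL-Prl5ST-1+Pbl6ST-1. Its lowest libraries were those of NIL-Pbl6ST-1. With 1 library left out, between 0 and 94 members were called, and all 15 calls were lost in each of the 7 fits that called 0.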

How the results depend on the processing

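Among the shared members, the 5 loci on each side of Pbl6 and the members of lowest P, every one called over the 12 libraries kept its direction and an adjusted p below 0.05 (at most 0.0303) in all alternatives run for it. Of the alternative values for these members, 466 kept direction and side of the threshold. The 15 that changed sign belong to uncalled members near 0, Os06t0664300-01 (-0.00012 in the main fit, 0.0047 without a filter, 0.0017 summed to loci, 0.0063 with the replicate block, -0.20 to 0.21 with 1 library left out) and Os06t0665800-01 (-0.11 to 0.075 with 1 library left out). The same replicate number did not pair libraries of NIL-Pbl6ST-1 with Koshihikari or of NIL-Prl5ST-1+Pbl6ST-1 with NIL-Prl5ST-1 (correlations of deviations between -0.14 and 0.10). Koshihikari with NIL-Prl5ST-1, whose replicate 2 libraries stood apart, was not examined in this way.

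Counts of members moved more. Shares over all transcripts were computed only for unadjusted P and for the comparisons of lines without both libraries that stood apart. The other counts are therefore not read as results about the members. For NIL-Pbl6ST-1 against Koshihikari (30), the count was 19 with the replicate block, 48 by the exact test, 98 unadjusted, 93 without both libraries that stood apart (chosen after seeing the data) and 11 to 93 with 1 library left out. For NIL-Prl5ST-1+Pbl6ST-1 against NIL-Prl5ST-1 (111) it was 173 unadjusted and 51 to 159 with 1 library left out. Over 12 libraries (73) it was 125 unadjusted and 45 to 78. For NIL-Prl5ST-1 against Koshihikari (5) it was 28 by DESeq2, 27 without a filter, 2 with at least 10 counts in every library, 1 with the replicate block, 49 in 1 fit of 12 libraries, 30 by the exact test, 120 unadjusted and 0 to 107 with 1 library left out. For the difference between the effects (15) it was 42 by DESeq2, 31 without a filter, 3 with the replicate block, 113 unadjusted and 0 to 94 with 1 library left out. The number of members called the same way in both comparisons (16) became 39 unadjusted, 11 with the replicate block (10 of them among the 16) and 5 to 20 with 1 library left out. The block of identifiers from Os06t0660000 (7; alternatives chosen after seeing the data) had 3 with the replicate block and 2 to 8 with 1 library left out. DESeq2 kept 15 of the 16, the fit of 12 libraries 12, and the exact test all 16. The cause of these shifts was not tested.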
